A study of Mus musculus with 4 samples.

Results

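The enzymes of the malate-aspartate shuttle and the glycerol 3-phosphate shuttle were examined in IMS32, an immortalized mouse line derived from Schwann cells, the glia that ensheathe peripheral nerve fibres. The genes were chosen by name for the role of their enzymes, with earlier results of these data known. All 7 of them, Got1, Mdh1, Got2, Mdh2, Gpd1, Gpd2 and Gpd1l, were present among the 31093 gene names of the array. Cultures stood for 1 h in DMEM that held 5% FBS, with glucose at 5 mM or 15 mM and pyruvate at 1 mM, (+), or left out, (−). Total RNA of each condition was labelled with Cy3 for a single array. These are called [Glc 5 mM/Pyr (+)] and, without pyruvate, [Glc 5 mM/Pyr (−)] at normal glucose, and [Glc 15 mM/Pyr (+)] and, without pyruvate, [Glc 15 mM/Pyr (−)] at high glucose, and values in a row follow this order of conditions. The question was whether removal of pyruvate, at normal or high glucose, was accompanied by a difference in the mRNA of these enzymes. All 4 conditions share the same cell line, medium and serum, and the cells are a proliferating line grown without nerve fibres.

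Glycolysis turns cytosolic NAD+ into NADH at the GAPDH step, and it can only go on if NAD+ is made again. Lactate dehydrogenase does this by reducing pyruvate to lactate, and the shuttles do it by passing the electrons of NADH to the mitochondria, whose inner membrane NADH itself does not cross. In the malate-aspartate shuttle a malate dehydrogenase and an aspartate aminotransferase work on each side of this membrane, while in the glycerol 3-phosphate shuttle a cytosolic dehydrogenase makes glycerol 3-phosphate and a mitochondrial flavoprotein oxidizes it.

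There were no replicates, so the spread between cultures is unknown and the number of arrays limits the precision of each difference. Of 39429 probes for mouse transcripts, 28477 to 30352 were well above background on an array and 0 spots were saturated. The values are background-corrected intensities, and a level is given as log2 intensity relative to the 75th percentile of all probes on the same array. The only error that could be measured was that between repeated spots of a probe on an array, which leaves out variation between cultures and between arrays. By brightness, probes measured on every array formed 3 groups of equal size. The median SD between repeated spots was 0.059 on the log2 scale in the brightest group, 0.071 in the middle and 0.18 in the dimmest. A difference between 2 arrays therefore had a 95% limit of 0.16, 0.20 and 0.49 from spot error alone, called the spot limit here. An alternative that scales the arrays to spike-in probes, which read RNAs added in known amounts, moved the median difference of all probes to -0.23 and -0.018 for pyruvate at 5 and 15 mM glucose and to -0.44 and -0.22 for glucose with and without pyruvate. Directions are therefore relative to the bulk of probes, and those of the 7 genes that turn with this spike-in scaling are named. All 13 Schwann cell markers on the list were well above background on all 4 arrays, with Sox10, a lineage transcription factor, between 4837 and 5667 intensity units. The neuregulin receptor Erbb3 was dim, at 15.6 to 22.2. Markers of other cells were seen too, since 6 of 7 fibroblast, 5 of 5 macrophage, 3 of 4 neuron and 2 of 3 endothelial genes were well above background on all 4 arrays. Endothelial Cdh5 was so on none. In a bulk RNA sample, fewer cells that express a gene and less RNA per cell cannot be told apart.

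Each of the 7 genes was read by 1 probe of 60 bases, printed once, and all 7 probes were well above background on 4 of 4 arrays. All 7 names matched a gene in the RefSeq table of GRCm38.p6. In the mm9 build used by the files, the Got1 probe lies at chr19:43574278-43574337 on the minus strand and the Mdh1 probe at chr11:21457280-21457339 on the minus strand. The Mdh2 probe lies at chr5:136266157-136266216 on the plus strand. The probe of Gpd1 is at chr15:99555334-99555393 on the plus strand and that of Gpd1l at chr9:114811428-114811487 on the minus strand. The exon or UTR under these probes was not read from an annotation. The Got2 probe is placed at chr5:138804798-138804857 on the minus strand, whereas RefSeq has the gene Got2 on chromosome 8 and a pseudogene, Got2-ps1, on chromosome 5. A second Got2 pseudogene lies on chromosome 14. The Got2 values therefore may hold signal from a copy, and the part of each copy was not tested.

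The files give no genome position for the probe of Gpd2, a gene on chromosome 2 in RefSeq, so its sequence is shown as the identity of what was measured. It begins at base 2028 of the transcript, and 2 of its 3 reading frames hold no stop codon. No part of it is in capitals because no motif was searched.
Gpd2 probe: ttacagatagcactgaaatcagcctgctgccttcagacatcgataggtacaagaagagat

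Got1, the cytosolic aspartate aminotransferase, makes aspartate and 2-oxoglutarate from glutamate and oxaloacetate or runs in reverse. Its intensity was 18928 and 19408 at 5 mM glucose, with and without pyruvate, and 18598 and 20708 at 15 mM. Relative to the 75th percentile these are log2 levels of 3.40, 3.48, 3.54 and 3.67 in the same order. Neighbouring conditions in this order differed by 0.062 to 0.12, all within the spot limit, whereas the lowest and the highest were 0.26 apart. With spike-in scaling Got1 was instead highest in [Glc 5 mM/Pyr (+)] and lowest in [Glc 15 mM/Pyr (+)], 0.28 apart. Mdh1, the cytosolic malate dehydrogenase that turns oxaloacetate into malate at the cost of NADH, had intensities of 33280, 32833, 32850 and 35052 in the same order of conditions. Its log2 levels were 4.22, 4.24, 4.36 and 4.43. The order of conditions was the one found for Got1, and again only conditions further apart than neighbours differed by more than the spot limit for a single pair. With spike-in scaling Mdh1 was highest and lowest in the same conditions as Got1.

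Got2, the mitochondrial aspartate aminotransferase, had intensities of 10428 and 9997 at 5 mM glucose, with and without pyruvate, and 9448 and 9017 at 15 mM. Its log2 levels were 2.54, 2.52, 2.56 and 2.47, a range of 0.098. The whole range lay within the spot limit, so the 4 conditions could not be ordered for Got2, although with spike-in scaling the range was 0.54, with the highest in [Glc 5 mM/Pyr (+)]. Mdh2, the mitochondrial malate dehydrogenase that also serves the TCA cycle, had intensities of 148621, 152297, 148752 and 154456. Its log2 levels were 6.38, 6.45, 6.54 and 6.56, with the lowest in [Glc 5 mM/Pyr (+)] and neighbours 0.024 to 0.089 apart. The range of 0.19 was just over the spot limit of 0.16 for a single pair, which a range can pass from spot error more easily. With spike-in scaling [Glc 5 mM/Pyr (+)] was the highest.

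Gpd1, the cytosolic glycerol 3-phosphate dehydrogenase that reduces dihydroxyacetone phosphate with NADH, had intensities of 585 and 730 at 5 mM glucose, with and without pyruvate, and 608 and 800 at 15 mM. The log2 levels were -1.61, -1.25, -1.39 and -1.03. Both conditions without pyruvate were above both conditions with it, and the range of 0.58 from [Glc 5 mM/Pyr (+)] to [Glc 15 mM/Pyr (−)] was the widest of the 7 genes, just over the 0.55 of Gpd1l. With spike-in scaling Gpd1 spanned 0.35, from [Glc 15 mM/Pyr (+)] to [Glc 5 mM/Pyr (−)], and Gpd1l had the widest range, 0.94. In the order of levels, [Glc 15 mM/Pyr (+)] was 0.22 above [Glc 5 mM/Pyr (+)], followed by [Glc 5 mM/Pyr (−)], which was 0.14 higher, and then [Glc 15 mM/Pyr (−)], another 0.22 higher. The middle pair was within the spot limit of 0.20, and both outer gaps were over it. Gpd1 is abundant in muscle and fat, and of 6 markers of these cells 4 were well above background on all 4 arrays, with a summed intensity of 768 to 916. Most of this was the muscle actin Acta1, at 705 to 835, while the fat cell markers Adipoq, Fabp4 and Plin1 read 13.0 to 25.6. Their part in the Gpd1 values was not tested.

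Gpd2, the mitochondrial enzyme that takes up the electrons of glycerol 3-phosphate, had its extremes in the opposite conditions, except with spike-in scaling. Its intensities were 1987 and 1758 at 5 mM glucose, with and without pyruvate, and 1587 and 1466 at 15 mM. The log2 levels were 0.15, 0.015, -0.0093 and -0.15. The highest was therefore the condition in which Gpd1 was lowest, and the lowest the condition in which Gpd1 was highest. With spike-in scaling the extremes of Gpd2 were in the same conditions, but those of Gpd1 were not. Neighbours differed by 0.024 to 0.14, within the spot limit, and the range of 0.31 was over it. Gpd1l, a cytosolic protein related to Gpd1 and also known for its effect on cardiac sodium channels, had intensities of 138.7, 91.9, 86.2 and 106.5. Its log2 levels were -3.69, -4.24, -4.21 and -3.94. Its probe was in the dimmest group, where the spot limit is 0.49, so of its range of 0.55 only the gap between [Glc 5 mM/Pyr (+)] and the lowest 2 conditions was over the limit. That limit is for a single pair, whereas a range takes the widest pair.

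**Figure D1:**
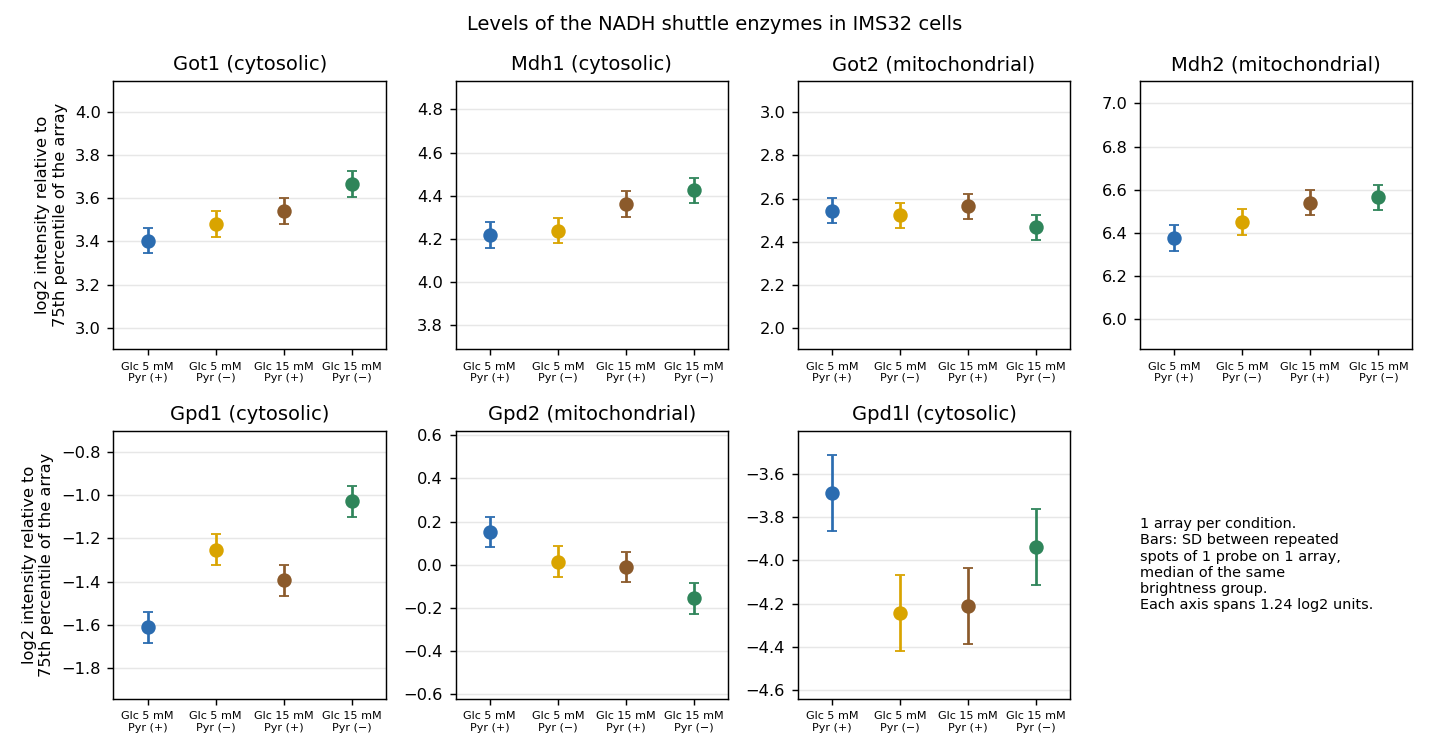
Level of each enzyme mRNA as log2 intensity relative to the 75th percentile of the array (y axis, 1 scale length for all panels) in the 4 conditions (x axis), with 1 array per point and bars of 1 SD between repeated spots in that brightness group. Gpd1 spans 0.58 and Gpd2 spans 0.31 with their extremes in opposite conditions (not so with spike-in scaling, which is not drawn), Got1, Mdh1 and Mdh2 span 0.19 to 0.26, and Got2 spans 0.098.

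The pyruvate comparison, Pyr (−) minus Pyr (+), was made at each glucose concentration between separate pairs of arrays. At 5 mM glucose 0 of 7 genes differed by 2-fold or more, where 1.17% of all probes did, and at 15 mM glucose 0 of 7 did, against 2.10% of all probes. At 1.5-fold the counts were also 0 of 7 and 0 of 7, against 3.20% and 6.54% of all probes. Like these genes, most probes reached neither fold.

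Gpd1 was higher without pyruvate at both glucose concentrations, by 0.36 at 5 mM (1.28-fold) and 0.37 at 15 mM (1.29-fold) on the log2 scale. Both exceeded the spot limit, whereas with spike-in scaling the differences were 0.14, within the limit, and 0.32. At 5 mM glucose, 2.32% of the probes in the same brightness group differed at least as much in either direction, and at 15 mM glucose, where probes in general varied more, 12.2% did. The Gpd1 difference was positive under each of the alternatives of processing that were run, up to 0.38 and 0.37. Gpd2 was lower without pyruvate, at -0.14 for 5 mM and -0.14 for 15 mM glucose, and its difference was negative under each of the alternatives too. Both Gpd2 differences lay within the spot limit, though that at 5 mM was -0.35 with spike-in scaling, and 30.8% and 46.6% of probes of like brightness differed at least as much. Gpd1 and Gpd2 thus lay on opposite sides of 0 in both pairs of arrays. Gpd1l, which is cytosolic too, was at -0.55 and 0.27, on the side of Gpd2 at 5 mM glucose and of Gpd1 at 15 mM glucose.

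Gpd1l was lower without pyruvate at 5 mM glucose, with a difference of -0.55, over the spot limit, and had a difference of 0.27 at 15 mM glucose, within it. With normexp, whose offset shrinks dim differences, these values were -0.32 and 0.054, and no spot limit was measured on that scale. Its difference at 15 mM minus that at 5 mM was 0.83, and 10.4% of probes of like brightness had a value at least as large. This contrast between glucose concentrations was not tested. The malate-aspartate enzymes differed little with pyruvate. Got1 was at 0.075 and 0.12, Mdh1 at 0.020 and 0.063, Mdh2 at 0.075 and 0.024, and Got2 at -0.022 and -0.098, in the order 5 and 15 mM glucose. All of these 8 differences were within the spot limit. With spike-in scaling Got1, Mdh1 and Mdh2 turned negative at 5 mM glucose, where Mdh1 at -0.20 and Got2 at -0.24 were past the limit, and Mdh2 turned negative at 15 mM glucose. The 7 genes had a median of 0.020 at 5 mM and 0.063 at 15 mM glucose, beside -0.018 and 0.028 for all probes, and at 5 mM it was negative with spike-in scaling.

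**Figure D2:**
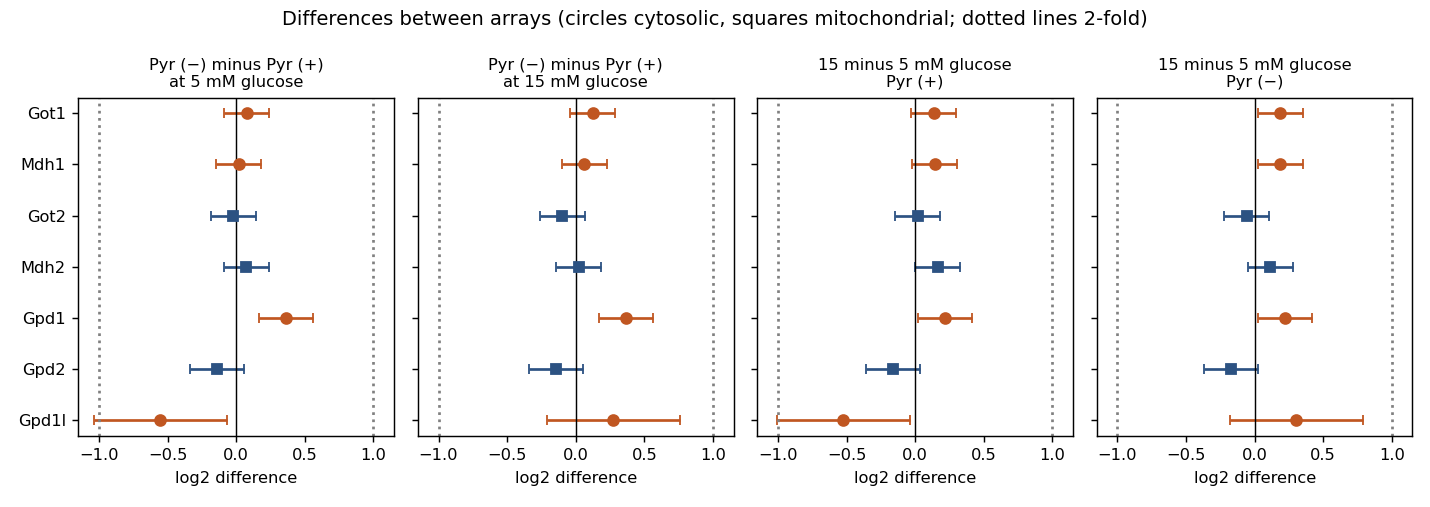
Log2 difference between 2 arrays (x axis) for each gene (y axis) in the 4 comparisons, with bars of the 95% spot limit, circles for cytosolic and squares for mitochondrial enzymes, and dotted lines at 2-fold. No gene reaches 2-fold, and only Gpd1 is clear of 0 by its bar in all 4 panels, although its glucose differences turn negative when the arrays are scaled to spike-in probes.

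**Figure D3:**
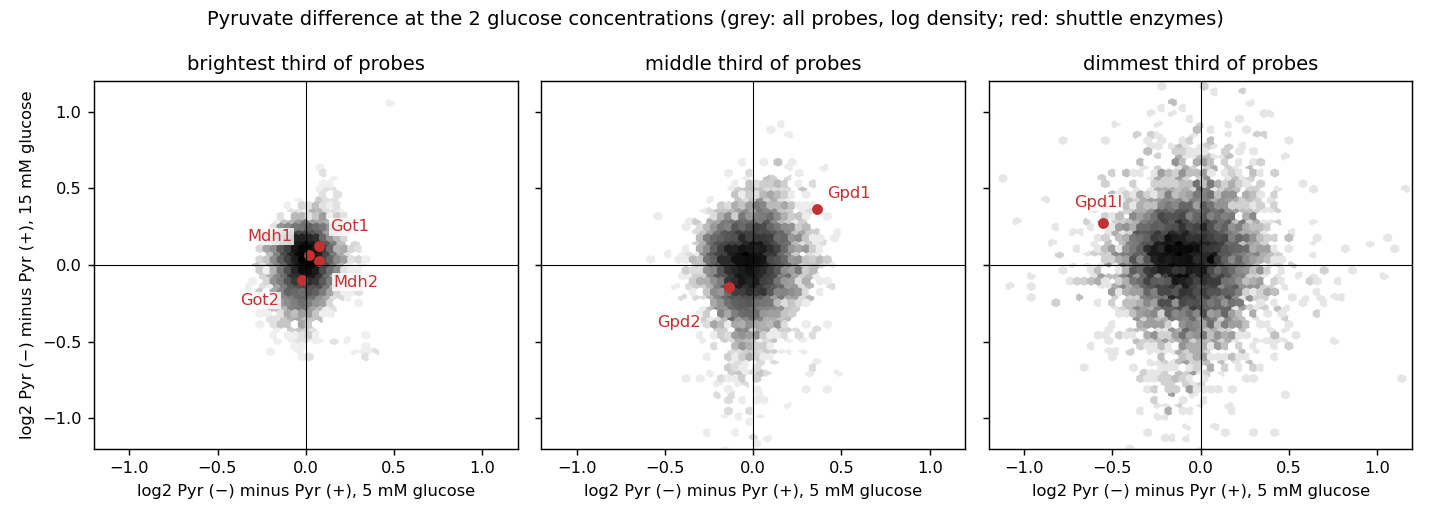
Pyruvate difference at 5 mM glucose (x axis, log2) against that at 15 mM glucose (y axis, log2) for the probes of each brightness group (grey, log density; values beyond 1.2 not drawn) and the 7 genes (red). Gpd1 lies at 0.36 and 0.37, where 2.32% of the probes of its group differed at least as much at 5 mM glucose and 12.2% at 15 mM. Gpd2 at -0.14 and -0.14 lies within the probes of its group, and the malate-aspartate enzymes lie in the centre of the brightest group.

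The glucose comparison, 15 minus 5 mM, was likewise made with and without pyruvate, on the same 4 arrays as the pyruvate comparison, so the 2 comparisons are not independent. None of the 7 genes reached 2-fold with pyruvate, where 0.967% of all probes did, and 0 of 7 reached it without pyruvate, against 2.40%. At 1.5-fold the counts were again 0 and 0, beside 3.12% and 7.28% of all probes. The median difference of the 7 genes was 0.14 with pyruvate and 0.19 without it, beside -0.017 and 0.032 for all probes, and both medians turned negative, to -0.28 and -0.064, with spike-in scaling. The gap between the median of the 7 genes and that of all probes was 0.15 with pyruvate and 0.15 without it, and it was 0.026 and 0.058 with quantile normalization, 0.050 and 0.084 with cyclic loess, and 0.073 and 0.14 with normexp, another background correction.

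Got1 was higher at 15 mM glucose by 0.14 with pyruvate and 0.19 without it, and Mdh1 by 0.14 and 0.19, whereas all 4 values were negative with spike-in scaling, from -0.28 to -0.063. The differences without pyruvate exceeded the spot limit and those with pyruvate did not. Mdh2 was higher by 0.16 and 0.11, within the spot limit, and turned to -0.26 and -0.14 with spike-in scaling, and to -0.018 without pyruvate under cyclic loess. Got2 was at 0.020 with pyruvate and -0.056 without it. The first of these values changed sign in 4 of the alternatives.

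The brightest group of probes as a whole was also higher at 15 mM glucose, with medians of 0.040 with pyruvate and 0.080 without it, while the dimmest group was at -0.12 and -0.0092. Relative to its own brightness group, a calculation added after the values were seen, Got1 was at 0.097 and 0.11. Mdh1 was at 0.10 and 0.11, Mdh2 at 0.12 and 0.033, and Got2 at -0.020 and -0.14. In the same calculation Gpd1 was at 0.25 and 0.22, Gpd2 at -0.13 and -0.17, and Gpd1l at -0.40 and 0.31. Quantile normalization, which removes such a trend with brightness, lowered the median of the 7 genes to 0.032 and 0.081. The part of the brightness trend in these differences was not tested.

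Gpd1 was higher at 15 mM glucose by 0.22 with pyruvate and 0.22 without it, both just over the spot limit, whereas with spike-in scaling it was at -0.20 and -0.026. Of the probes of like brightness, 15.2% and 31.5% differed at least as much. Gpd2 was lower at 15 mM glucose, with differences of -0.16 and -0.17, within the spot limit, and was negative in both under each of the alternatives, down to -0.58 and -0.42 with spike-in scaling. Gpd1l was at -0.52 with pyruvate, over the spot limit, and at 0.30 without it, within the limit, and the first was -0.20 with normexp. The 2 differences of Gpd1l over the limit share the array of [Glc 5 mM/Pyr (+)], its highest.

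Grouped by compartment, all 4 cytosolic enzymes were higher at 15 mM than at 5 mM glucose without pyruvate, between 0.19 and 0.30. So was 1 of 3 mitochondrial enzymes. Among all probes 55.8% were higher, and in the brightest group, which holds the 4 malate-aspartate enzymes, 69.0% were. The values of Gpd1l and Mdh2 were within the spot limit, and spike-in scaling reversed the direction for Got1, Mdh1, Gpd1 and Mdh2. For pyruvate at 15 mM glucose, all 4 cytosolic enzymes were between 0.063 and 0.37, beside 55.9% of all probes and 59.7% of the brightest group above 0. The mitochondrial enzymes were between -0.14 and 0.024, where Mdh2 turned to -0.023 with spike-in scaling. Only Gpd1 was over the spot limit in this comparison. At 5 mM glucose the cytosolic enzymes did not lie on 1 side of 0, since Gpd1l was at -0.55. For glucose with pyruvate 3 of 4 cytosolic and 2 of 3 mitochondrial enzymes were higher, beside 45.8% of all probes and 65.2% of the brightest group. With spike-in scaling, where the median of all probes was -0.44, 0 of 7 were higher.

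**Figure D4:**
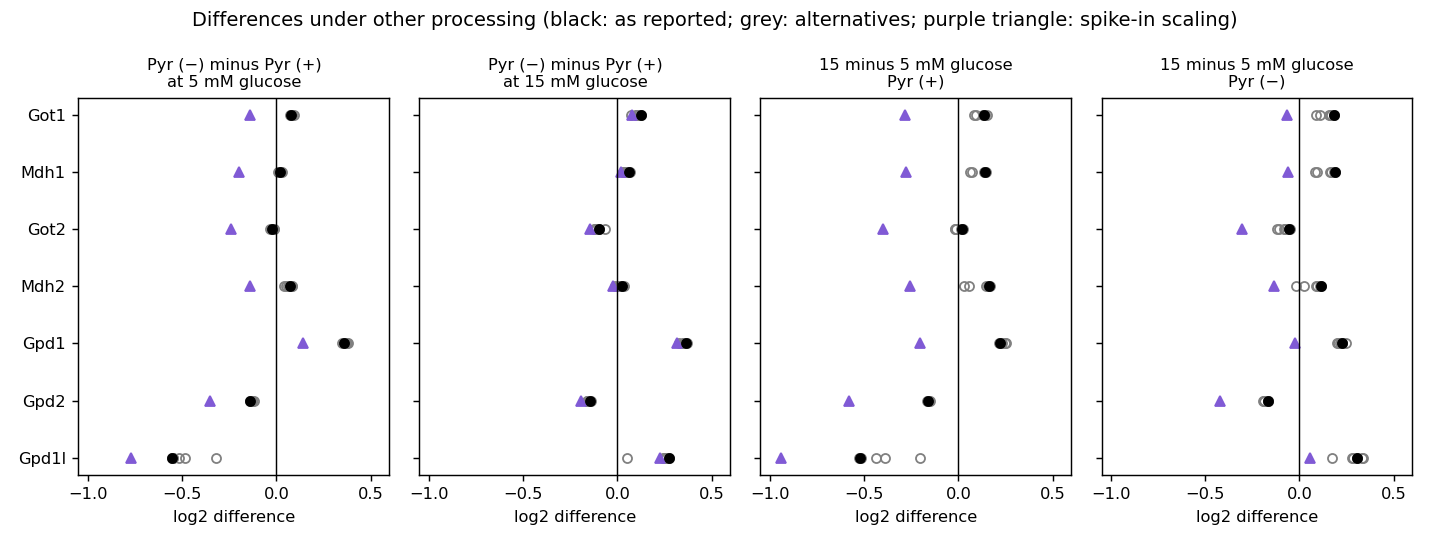
Log2 difference (x axis) of each gene (y axis) in the 4 comparisons as reported (black), under the other alternatives (grey circles) and with scaling to spike-in probes (purple triangles). Spike-in scaling moves all 7 genes down together, by most in the glucose comparison with pyruvate, while Gpd1 stays above 0 in both pyruvate comparisons and Gpd2 below 0 in all 4.

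An additive fit of pyruvate and glucose over the 4 arrays with limma, which has 1 residual degree of freedom and counts an unequal pyruvate effect at 5 and 15 mM glucose as error, was the only test the design allowed. It called 0% of 31280 probes for pyruvate and 0% for glucose at a Benjamini-Hochberg adjusted p of 0.05, so 0 of the 7 genes passed. At an unadjusted p under 0.05 there were 1078 probes for pyruvate and 1498 for glucose of the 31280 in the limma fit. Each is a smaller share than the 0.05 that this threshold lets pass without any effect. In this limma fit the effect of removing pyruvate on Gpd1 was 0.36 ± 0.089 (SE), with an unadjusted p of 0.035 and an adjusted p of 0.985. That on Gpd2 was -0.14 ± 0.089, with an adjusted p of 0.985. The effect on Gpd1l was -0.14 ± 0.27, with an adjusted p of 0.994, since its differences at 5 and 15 mM glucose had opposite signs. For glucose, limma gave 0.16 ± 0.090 for Got1, 0.17 ± 0.090 for Mdh1, 0.14 ± 0.090 for Mdh2, 0.22 ± 0.089 for Gpd1 and -0.17 ± 0.089 for Gpd2, each with an adjusted p of 0.772. None of these effects passed the adjusted threshold, which no probe did. With 1 residual degree of freedom this cannot show that an effect was absent.

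Genes next to the shuttles were taken from 4 lists, and 0 of their measured genes reached 1.5-fold in any of the 4 comparisons. The lists were not recomputed with spike-in scaling, so their directions and counts hold for scaling to the 75th percentile only. All 6 mitochondrial carriers of the shuttles' metabolites were measured, with medians of -0.034 and 0.017 for pyruvate at 5 and 15 mM glucose and of -0.0021 and 0.089 for glucose with and without pyruvate. Slc25a11, the carrier that exchanges malate for 2-oxoglutarate, had intensities of 19230 and 19210 at 5 mM glucose, with and without pyruvate, and 19590 and 21240 at 15 mM. Its differences were 0.038 and 0.086 for pyruvate and 0.19 and 0.24 for glucose, so like Got1 and Mdh1 it was highest in [Glc 15 mM/Pyr (−)] after scaling to the 75th percentile. The largest differences among the carriers were those of Slc25a18, a glutamate carrier, at 0.35 for pyruvate at 15 mM and 0.49 for glucose without pyruvate. Both of its probes were in the dimmest group, with a mean intensity of 22.2 to 29.2, and for the latter comparison they read 0.28 and 0.70. Slc25a10, a dicarboxylate carrier, had the largest value for pyruvate at 5 mM glucose, -0.18.

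Of 16 other enzymes that make or use cytosolic NADH, 15 were measured. For pyruvate at 15 mM glucose, 14 of 15 were higher, with a median of 0.14 beside 0.028 for all probes, and for glucose without pyruvate 14 of 15 were higher, with a median of 0.11 beside 0.032. Among all probes, 55.9% and 55.8% were higher in these comparisons. With spike-in scaling the median of all probes was -0.018 and -0.22 instead, and the counts of this list were not recomputed. For 11 of the 15 genes every measured probe was in the brightest group, where 59.7% and 69.0% of probes were higher, with medians of 0.034 and 0.080. These comparisons share the array of [Glc 15 mM/Pyr (−)]. At 5 mM glucose 11 of 15 were higher without pyruvate, with a median of 0.046, beside 44.5% of all probes, and for glucose with pyruvate 9 of 15 were higher, with a median of 0.040, beside 45.8%. The median of all probes with spike-in scaling was -0.23 for the former comparison and -0.44 for the latter. Ldhb, a lactate dehydrogenase subunit, had intensities of 9068 and 9746 at 5 mM glucose, with and without pyruvate, and 8939 and 10080 at 15 mM. It differed by 0.14 in each of the 4 comparisons. The largest difference in the list was 0.24, for Adh5, a glutathione-dependent formaldehyde dehydrogenase, for glucose without pyruvate, and Adh1, an alcohol dehydrogenase, was at 0.20 for pyruvate at 15 mM glucose.

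Of 11 genes around glycerol 3-phosphate, 10 were measured, with medians of 0.023 and 0.074 for pyruvate at 5 and 15 mM and of -0.054 and 0.082 for glucose with and without pyruvate. Gyk, the glycerol kinase that makes glycerol 3-phosphate without NADH, had intensities of 353, 377, 298 and 267 and was at -0.41 for glucose without pyruvate, the largest size in the list, while Gpd1 was at 0.22 in that comparison. Aqp3, a channel for water and glycerol, was at -0.25 for pyruvate at 5 mM glucose, and the acyltransferases Gpat2 and Gpam were at 0.27 for pyruvate at 15 mM and at -0.15 for glucose with pyruvate. Aqp3, Gpat2 and a probe of Gpam were in the dimmest group. Of 24 genes of aspartate, glutamate and malate metabolism, 22 were measured, and their medians were between 0.012 and 0.056 over the 4 comparisons. Pcx, pyruvate carboxylase, which makes oxaloacetate from pyruvate, had intensities of 3025, 3318, 3131 and 3086. Its differences of 0.17 for pyruvate at 5 mM and 0.21 for glucose with pyruvate share its lowest condition, [Glc 5 mM/Pyr (+)]. Cad, which uses aspartate for pyrimidine synthesis, was at -0.29 for pyruvate at 15 mM glucose. Its probe was in the dimmest group too, where the spot limit is 0.49. Gpt, an alanine aminotransferase, was at -0.31 for glucose without pyruvate.

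**Figure D5:**
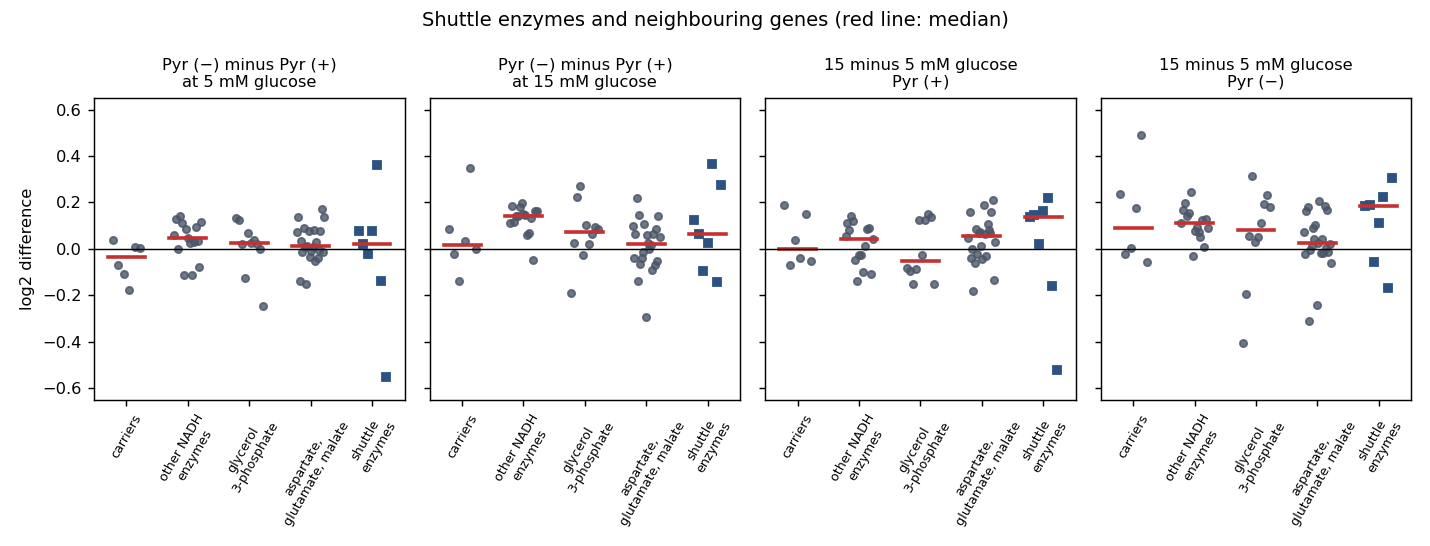
Log2 difference (y axis) in the 4 comparisons for each measured gene of the 4 neighbouring lists (grey circles) and the 7 shuttle enzymes (blue squares), with the median of each list in red. All values lie between -0.55 and 0.49 with the scaling used, and of 15 other NADH enzymes 11, 14, 9 and 14 lie above 0 from left to right, beside 44.5%, 55.9%, 45.8% and 55.8% of all probes.

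Gpd1, which had the widest range of the 7 genes except with spike-in scaling, was compared with 21718 genes over the 4 arrays by the distance between profiles, each centred on its own mean on the log2 scale. Among the closest were Ttc29 at a distance of 0.030, Insig1 at 0.037, a transcript named in the array design by an Ensembl identifier alone at 0.044, and Zfp324 at 0.053. The centred profile of Gpd1 was -0.29 and 0.069 at 5 mM glucose, with and without pyruvate, and -0.072 and 0.29 at 15 mM, and that of Insig1 was -0.26, 0.070, -0.097 and 0.29. Over 4 arrays and this many genes, close profiles are a description.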

How the data were processed

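Per the labels, the authors extracted total RNA with TRIzol, labelled it with Cy3 and scanned 1 one-colour Agilent array per condition. The deposited scanner output of Feature Extraction 11.5.1.1 holds the intensity of each spot after background correction, with no scaling between arrays. The deposited value table holds a ratio, the same intensity divided by a constant for each array (1719 to 1930), within 5.6e-07. The settings of the authors' software are not given in the sources used here. GEO's labels gave the groups.

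Spots that were controls or outliers were dropped, spots of a probe were averaged, and the array's 75th percentile (1597 to 1788) was subtracted on the log2 scale. Members were matched by gene name in the array design, never by synonym. Differences have no test. The additive fit used limma 3.58.1 under R 4.3.3 on probes above background on 1 array or more, and other steps Python 3.11.15, numpy 2.4.6, pandas 2.3.3 and matplotlib 3.10.9. Calculations were tested on simulated data.

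The members and lists were chosen with earlier results of these data known. Named genes are the 7 members, the gene with the largest difference of each list in each comparison, any list gene past 1.5-fold, and the 5 profiles nearest to the member with the widest range. Some genes that these rules take are not reported here. Which list genes were given in full, and which cell type markers, was decided after their values were seen. The alternatives tried were scaling to 9 of 10 spike-in probes, cyclic loess, quantile normalization, the 75th percentile of the probes measured on every array, normexp with an offset of 50, the deposited table, no filter on dim probes, the brightest probe, a 1.5-fold threshold, an intensity trend in limma and a fit on probes above background on all 4 arrays. A comparison of protein sequences was planned and was not run.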

Additional observations from a re-analysis of the deposited data

How the results depend on the processing

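Each of the 28 single differences of the 7 genes was recomputed under 6 alternatives that could change it. The yardstick was the SD of a difference between 2 arrays from spot error, 0.084, 0.10 and 0.25 in the brightest, middle and dimmest group. Of the 168 values, 139 moved by less than this SD and 29 by more, 20 of them with spike-in scaling. The sign changed in 18, of which 13 were with spike-in scaling. The largest difference that changed sign was 0.224, that of Gpd1 for glucose without pyruvate, which was -0.0255 with spike-in scaling. No gene reached 2-fold under any of the alternatives, and the largest size was 0.94, for Gpd1l with spike-in scaling. The 2 further alternatives, the brightest probe and no filter on dim probes, could change nothing, since each gene has 1 probe. The median of the 7 genes for glucose with pyruvate went to 0.0315 with quantile normalization. For glucose without pyruvate it went to 0.0811 with quantile normalization and 0.0956 with cyclic loess. With spike-in scaling it was -0.196 for pyruvate at 5 mM glucose, and the glucose medians were -0.283 with pyruvate and -0.0637 without it. The limma fit, with 0 calls for either effect, called 36 probes for pyruvate and 75 for glucose with spike-in scaling, and 2 for pyruvate with normexp. Probes past 2-fold numbered 340 and 583 for pyruvate at 5 and 15 mM glucose and 273 and 676 for glucose with and without pyruvate, against 10, 100, 8 and 113 with normexp, whose offset shrinks dim differences. With spike-in scaling 623 probes passed for glucose with pyruvate. The causes of the other changes were not tested. No paired analysis was possible because each condition has 1 array, and for the same reason no array could be left out within a condition. Signal over background limits Gpd1l the most.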
